A study of Mus musculus with 24 samples.

Results

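The REV-ERB and ROR nuclear receptors of the circadian clock were followed here in brain endothelium as 4 genes, chosen by symbol from the 53465 genes listed: the repressors Nr1d1 and Nr1d2 and the activators Rora and Rorb. All 4 were among the 15493 genes past the expression filter, which asks for at least 5 normalized reads in 6 libraries of either genotype. RNA was sequenced from CD31-positive cells sorted from the brains of male and female mice of the C57BL/6J strain, with 1 mouse behind each library and 10000 to 20000 cells sorted from each. Control mice were Bmal1fl/fl, which carry floxed Bmal1 alleles and no Cre, and mutant mice were Bmal1fl/fl with the Tie2cre transgene, so both genotypes share the floxed alleles. The Tie2 (Tek) promoter drives Cre in endothelium and also in many blood-derived cells, so the deletion was not restricted to the brain. The mice were kept on cycles of 12 h of light and 12 h of dark, and 2 mice of each genotype were collected at each of zeitgeber time (ZT) 2, 6, 10, 14, 18 and 22, where lights were on from ZT0 and off from ZT12. The labels name no other treatment, and ages were not given in the sources used here. The question was how the transcripts of these receptors varied through the day in brain endothelium and how they differed where Bmal1 had been deleted.

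REV-ERB and ROR proteins bind the same DNA element, a hexamer of the AGGTCA kind preceded by an A/T-rich stretch, with opposite effects. REV-ERBα (Nr1d1) and REV-ERBβ (Nr1d2) recruit the NCoR and HDAC3 corepressor complex and silence transcription, whereas RORα (Rora) and RORβ (Rorb) recruit coactivators. Bmal1 (listed as Arntl) is the best known target of both, and BMAL1 with CLOCK activates Nr1d1 and Nr1d2 in turn through E-box elements, which closes a loop that interlocks with the PER and CRY loop.

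Because the repressor genes moved with genotype and time of day, their proximal promoters are shown, with capitals marking the clock-related motifs found by letter match. The windows came from RefSeq (GRCm38.p6), where each of the 4 genes had at least 1 entry. Nr1d1 is shown from chr11:98775378-98775627 and Nr1d2 from chr14:18239128-18239356, both read 5′ to 3′ on the minus strand and ending before the first annotated exon.
Nr1d1: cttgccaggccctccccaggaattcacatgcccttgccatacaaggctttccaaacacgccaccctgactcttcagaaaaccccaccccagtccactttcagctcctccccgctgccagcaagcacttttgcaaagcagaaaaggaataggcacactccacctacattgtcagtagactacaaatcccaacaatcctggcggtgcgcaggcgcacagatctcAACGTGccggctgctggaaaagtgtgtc
Nr1d2: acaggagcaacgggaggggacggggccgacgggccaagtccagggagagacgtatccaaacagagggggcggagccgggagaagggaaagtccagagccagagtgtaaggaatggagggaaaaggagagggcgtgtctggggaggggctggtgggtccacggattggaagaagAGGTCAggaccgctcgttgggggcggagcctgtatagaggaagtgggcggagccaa
The capitals in Nr1d1 mark AACGTG, the reverse complement of the E-box variant CACGTT, which starts at position -28 from the RefSeq transcription start. The capitals in Nr1d2 mark an AGGTCA hexamer at position -77. The search covered both strands of windows from 250 bases upstream to 50 bases downstream of the start, for the E-box CACGTG and its variant CACGTT, for the receptor hexamers AGGTCA and, in another form, GGGTCA, and for the D-box as TTATGTAA or, in another form, TTACGTAA. Among 32851 RefSeq mouse promoter windows of that length, 4.68% held CACGTT and 16.3% held AGGTCA. For the other motifs searched the shares were 7.15% for CACGTG, 13.7% for GGGTCA, 0.938% for TTATGTAA and 0.119% for TTACGTAA. The window at the annotated start of Rora held none of the 6 motifs, and of the 2 Rorb windows the one with the downstream start held AACGTG at position -234.

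The libraries had been normalized to near-equal totals, from 6136404 to 6648311 normalized reads. All 8 endothelial markers checked (Pecam1, Cdh5, Cldn5, Tie1, Tek, Flt1, Kdr and Slco1c1) had at least 1590 reads in every library. The 8 libraries of ZT6 and ZT18 stood apart from the other 16. Their summed astrocyte markers lay between 740 and 1207 CPM (reads scaled to a fixed library total) against 1654 to 3275, neuron markers between 6.84 and 16.7 against 17.6 to 114, and microglia markers between 76.3 and 140 against 857 to 2456. These time points carry library numbers of their own, so that series and those times of day cannot be told apart. Arntl, the targeted gene, was counted over the whole gene, so its reads (1 to 468 in controls, 81 to 354 in mutants) include exons outside the deleted part and do not check the deletion.

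A pair of libraries with consecutive library numbers, control ZT18 replicate 2 and mutant ZT6 replicate 1, went against their genotype labels. The library labelled control ZT18 replicate 2 had 305 reads of Npas2, 60 of Per3 and 501 of Cry1, where the other 11 controls had 1 to 138, 112 to 856 and 116 to 389 and the other 11 mutants 127 to 331, 36 to 136 and 395 to 633. The library labelled mutant ZT6 replicate 1 had 0 reads of Npas2, 277 of Per3 and 365 of Cry1. All 6 values thus lay outside the range of their own genotype, and all but the Npas2 value of 0 lay inside that of the other. These 3 clock genes were picked after their values were seen. Among all genes tested, Fmo2, Glipr2 and Gm16011 did not overlap between genotypes in the other 22 libraries, and for each of the 3 both libraries lay nearer the mean log2 CPM of the other genotype. Each library was kept under its label, and results that rest on the pair are also given without both, an alternative chosen after seeing the data and by genes that move with the receptors.

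Nr1d1 encodes REV-ERBα. Among control mice, the ZT2 mice had 322 and 281 normalized reads of Nr1d1, the ZT6 mice 1765 and 990, the ZT10 mice 497 and 433, the ZT14 mice 118 and 330, the ZT18 mice 43 and 282, and the ZT22 mice 38 and 24. Among mutant mice, the ZT2 mice had 53 and 113 reads, the ZT6 mice 20 and 198, the ZT10 mice 158 and 77, the ZT14 mice 39 and 101, the ZT18 mice 19 and 12, and the ZT22 mice 15 and 23. The control values were highest in the middle of the light phase and lowest at the end of the dark phase, a 44.4-fold range between the means of ZT6 and ZT22. In mutants the highest mean, 117.5 reads at ZT10, stood 7.58-fold above the lowest, 15.5 reads at ZT18. Without the library labelled mutant ZT6 replicate 1, which had 20 reads, the highest was the 198 reads of the other ZT6 mouse, 12.8-fold above ZT18. Both control mice lay above both mutant mice at each of the 6 time points, although the highest mutant value (198 at ZT6) exceeded 4 of the 12 control values, those of both ZT22 mice and 1 mouse each of ZT14 and ZT18. Averaged over time points, Nr1d1 was 4.78-fold lower in mutants (log2 fold change of -2.26 with a standard error, SE, of 0.34, n = 12 per genotype, adjusted p = 0.000659 by edgeR's quasi-likelihood test over all genes). The log2 fold change was -3.54 (adjusted p = 0.00033) within ZT6 and ZT18 alone and -1.64 (adjusted p = 0.00410) with those time points left out. The library labelled mutant ZT6 with 20 reads and the one labelled control ZT18 with 282 are the pair that went against their labels. Without both, Nr1d1 stood at -1.79 over the day (SE 0.23, n = 11 per genotype, adjusted p = 2.78e-05 by edgeR) and at -2.39 within ZT6 and ZT18 (adjusted p = 7.10e-05).

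Nr1d2 encodes REV-ERBβ, the second repressor of the family. Among control mice, the ZT2 mice had 281 and 346 reads of Nr1d2, the ZT6 mice 1252 and 1199, the ZT10 mice 883 and 1067, the ZT14 mice 872 and 910, the ZT18 mice 338 and 258, and the ZT22 mice 100 and 158. Among mutant mice, the ZT2 mice had 64 and 183 reads, the ZT6 mice 534 and 105, the ZT10 mice 148 and 174, the ZT14 mice 217 and 134, the ZT18 mice 51 and 79, and the ZT22 mice 87 and 56. Control values stayed high from ZT6 to ZT14, whereas the Nr1d1 mean had already dropped from 1378 to 465 reads between ZT6 and ZT10. Both control mice again lay above both mutants at every time point. Over the day Nr1d2 was 3.74-fold lower in mutants (log2 fold change -1.90, SE 0.21, n = 12 per genotype, adjusted p = 8.57e-06 by edgeR), the lowest p of all genes tested in the 24 libraries. Its log2 fold change was -2.02 within ZT6 and ZT18 and -1.84 without them, with adjusted p-values of 0.00105 and 0.000223. Without the pair of libraries, in which Nr1d2 had 534 and 258 reads, it was -2.10 over the day (SE 0.22, adjusted p = 9.31e-07 by edgeR) and -2.97 within ZT6 and ZT18 (adjusted p = 1.13e-07).

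Both repressors were thus among the 18 genes called lower in mutants at an adjusted p under 0.05, which is 0.116% of the genes tested, while neither activator was called. Genes with both control mice above both mutants at all 6 time points numbered 3, or 0.0194% of those tested: Nr1d1, Nr1d2 and Per3. The count was 12 (0.0775%) without the pair of libraries, these 3 among them. In sorted bulk samples such as these, fewer cells of a type and less RNA per cell cannot be told apart. Adding astrocyte, neuron or microglia markers as a covariate left the log2 fold changes between -2.54 and -2.33 for Nr1d1 and between -1.89 and -1.86 for Nr1d2, all with adjusted p-values below the threshold. Both calls were lost when the time point was left out of the model (adjusted p = 0.160 and 0.0760), where the daily range of each gene counts as spread.

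**Figure D1:**
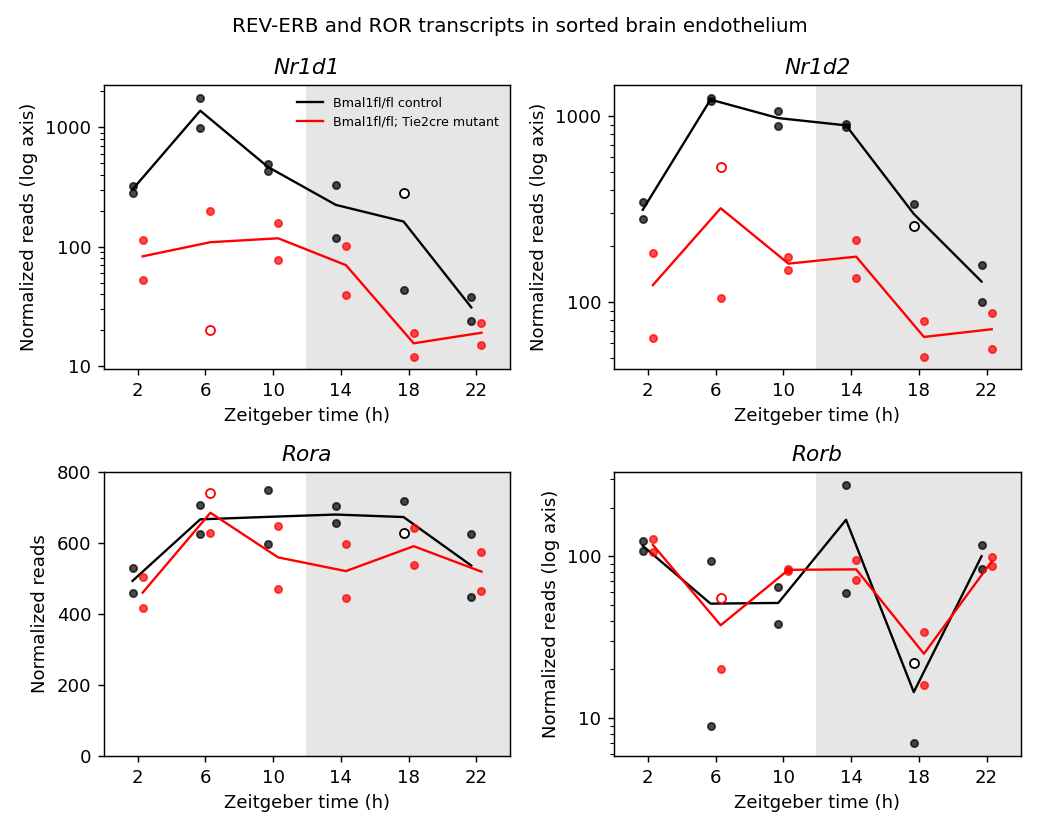
Normalized reads (log axis, except linear for Rora) against zeitgeber time for the 4 receptors, with 1 point per mouse, lines through the means of 2 mice, controls in black, mutants in red and the dark phase shaded. Nr1d1 and Nr1d2 were lower in both mutants than in both controls at each time point, and Rora and Rorb overlapped at most of them. Open circles mark the libraries labelled control ZT18 replicate 2 and mutant ZT6 replicate 1.

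Rora encodes RORα. Among control mice, the ZT2 mice had 458 and 528 reads of Rora, the ZT6 mice 707 and 625, the ZT10 mice 597 and 749, the ZT14 mice 656 and 703, the ZT18 mice 717 and 628, and the ZT22 mice 447 and 625. Among mutant mice, the ZT2 mice had 417 and 503 reads, the ZT6 mice 740 and 629, the ZT10 mice 470 and 648, the ZT14 mice 597 and 444, the ZT18 mice 539 and 642, and the ZT22 mice 574 and 464. All 24 libraries stayed between 417 and 749 reads, and the genotypes overlapped at every time point but ZT14, where both controls were higher. Its mean was 620 ± 98.7 reads in controls and 556 ± 99.0 in mutants (SD, n = 12). The log2 fold change of Rora was -0.16 (SE 0.09, 95% interval -0.35 to 0.03, adjusted p = 0.793, edgeR), and -0.21 without the pair of libraries (adjusted p = 0.604).

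Rorb encodes RORβ, which is best known from neurons and the retina. Among control mice, the ZT2 mice had 124 and 108 reads of Rorb, the ZT6 mice 93 and 9, the ZT10 mice 65 and 38, the ZT14 mice 277 and 59, the ZT18 mice 7 and 22, and the ZT22 mice 117 and 83. Among mutant mice, the ZT2 mice had 107 and 128 reads, the ZT6 mice 55 and 20, the ZT10 mice 84 and 81, the ZT14 mice 71 and 95, the ZT18 mice 16 and 34, and the ZT22 mice 87 and 99. The 2 mice of a group could be far apart, as the controls of ZT6 and ZT14 were, and both mutants exceeded both controls at ZT10 only. The log2 fold change of Rorb was -0.04 (SE 0.31, 95% interval -0.70 to 0.61, adjusted p = 0.994 by edgeR). The sign of this estimate turned in several alternatives, including with astrocyte markers as a covariate (0.07), and was -0.10 without the pair of libraries (adjusted p = 0.981).

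Rorb was low in the ZT6 and ZT18 libraries of both genotypes. It had 7 to 93 reads (median 21) in the 8 libraries of ZT6 and ZT18 and 38 to 277 reads (median 91) in the other 16, where neuron, astrocyte and microglia markers were all higher. Oligodendrocyte markers also summed to less in the ZT6 and ZT18 libraries (338 to 705 CPM against 816 to 2664), as did the mitochondrial share of reads (2.68% to 3.90% against 5.78% to 17.4%). Endothelial markers were higher there (14574 to 15648 CPM against 8871 to 13375), and smooth muscle markers (483 to 1121 against 100.5 to 644) and pericyte markers (1917 to 3186 against 1340 to 2470) were higher with overlap. Within the 16 libraries the correlation of log2 Rorb with the summed neuron markers was r = 0.49, with the astrocyte markers r = 0.08, with oligodendrocyte markers 0.26, with smooth muscle markers -0.29 and with pericyte markers -0.40. Within the 8 libraries of ZT6 and ZT18 the same values were -0.41, 0.52, -0.50, -0.65 and -0.29. These are descriptions over libraries that share processing and depth, and the part of other cell types in the Rorb values was not tested. Rora had medians of 635.5 reads in the ZT6 and ZT18 libraries and 551 in the others.

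**Figure D2:**
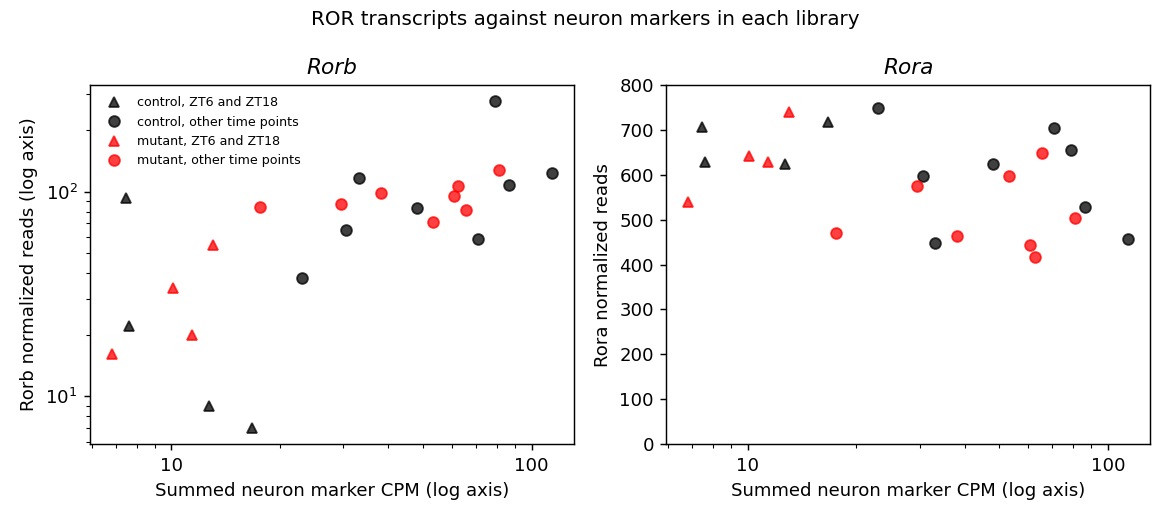
Normalized reads of Rorb (left, log axis) and Rora (right, linear axis) against the summed CPM of 6 neuron markers (log axis) in each of 24 libraries, triangles for ZT6 and ZT18, circles for the other time points, black for controls and red for mutants. Rorb had a median of 21 reads in the ZT6 and ZT18 libraries and 91 in the others.

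The genotypes were also compared at each time point. For Nr1d1 the log2 fold change, mutant over control, was -1.83 at ZT2, then -3.65 at ZT6, -1.97 at ZT10, -1.77 at ZT14, -3.34 at ZT18 and -0.71 at ZT22, with SEs from 0.70 to 0.85. For Nr1d2 it was -1.32 at ZT2, -1.88 at ZT6, -2.59 at ZT10, -2.45 at ZT14, -2.17 at ZT18 and -0.86 at ZT22, with SEs from 0.47 to 0.50. Both differences were smallest at ZT22, when the control levels were themselves lowest, but a test of whether the difference varied among time points (edgeR, genotype by time point, n = 12 per genotype) gave unadjusted p = 0.111 for Nr1d1 and 0.119 for Nr1d2 (adjusted p = 0.947 and 0.953). The same test gave 0.280 and 0.00102 without the pair of libraries, and the adjusted p stayed above the threshold (0.912 and 0.339).

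With 2 mice per group and adjustment over all genes within a time point, Nr1d2 was called at ZT10 (adjusted p = 0.0262) and ZT14 (adjusted p = 0.0206), where 0.0645% and 0.232% of genes were called (edgeR's quasi-likelihood test). Each of these calls was lost when any 1 of the 4 mice of that time point was left out, with adjusted p-values from 0.180 to 0.360 at ZT10 and from 0.0516 to 0.364 at ZT14, while the log2 fold change stayed between -2.82 and -2.15. At ZT10, as at ZT2, both control libraries carried index a of the i5 sequence label and both mutant libraries index b. Genotype and index cannot be told apart at those time points. Nr1d1 was not called at any time point. It came nearest at ZT6 (adjusted p = 0.0912, with 0.0129% of genes called at that time) and passed there with the replicate number as a block (adjusted p = 0.0464) and, with the log2 fold change at -3.65, without either control ZT18 mouse (adjusted p = 0.0435 and 0.0484). The 2 mutant mice of ZT6 were far apart for both repressors and in opposite order: replicate 1, one of the pair that went against their labels, had 20 reads of Nr1d1 and 534 of Nr1d2, and replicate 2 had 198 and 105.

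Single mice moved several of these differences, and a group left with 1 mouse was then assumed to vary like the other groups. At ZT6 the Nr1d1 difference was -6.03 without mutant replicate 2 (adjusted p = 0.0175) and -2.80 without mutant replicate 1 (adjusted p = 0.426), and the Nr1d2 difference was -1.13 (adjusted p = 0.495) and -3.55 (adjusted p = 0.00295) in the same fits. Nr1d1 changed to -1.46 at ZT18 without control replicate 2 and to -0.85 at ZT14 without control replicate 2. Nr1d2 at ZT2 was -0.77 without mutant replicate 1 and -2.25 without mutant replicate 2. At ZT22, where neither gene was called, Nr1d1 ran from -1.05 to -0.34 and Nr1d2 from -1.21 to -0.50 over the fits that left out 1 mouse. Every such value of both repressors was below 0. Nr1d2, without the pair of libraries, was called at ZT6 (-3.54, adjusted p = 0.00126), ZT10 (adjusted p = 0.00099), ZT14 (adjusted p = 0.000801) and ZT18 (-2.37, adjusted p = 0.0205), where 0.0645%, 0.142%, 0.329% and 0.0645% of genes were called by edgeR. Nr1d1 was called at none (ZT6 -2.80, adjusted p = 0.161, and ZT18 -1.46, adjusted p = 0.807). Neither Rora nor Rorb was called at any of the 6 time points. Rora differed by -0.49 at ZT14 (SE 0.22, unadjusted p = 0.0376, adjusted p = 0.535) and by between -0.26 and 0.08 at the other times.

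**Figure D3:**
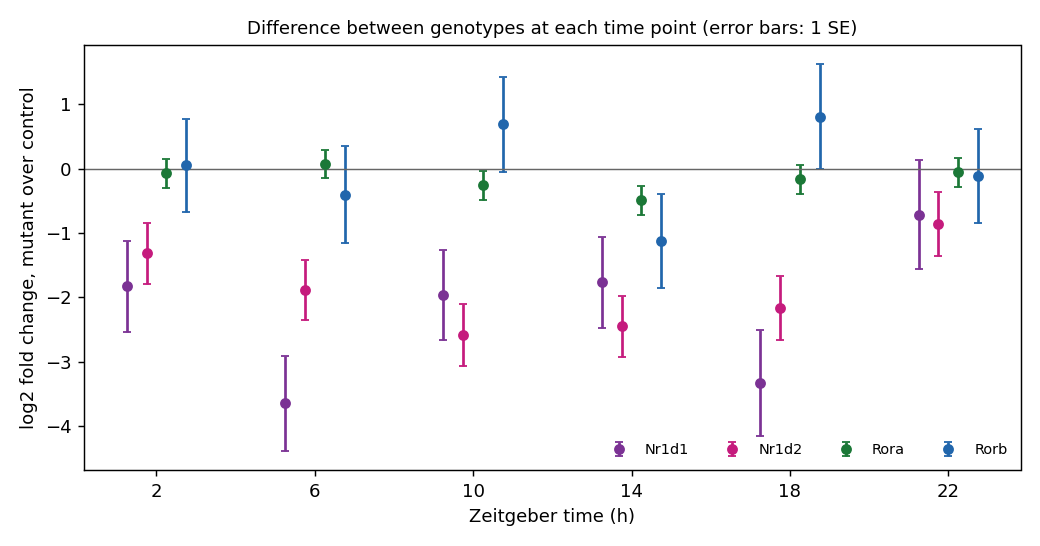
The log2 fold change, mutant over control, of each receptor at each zeitgeber time, with 2 mice per genotype and bars of 1 SE from the edgeR fit over all 24 libraries. The Nr1d1 and Nr1d2 estimates lie below 0 at all 6 time points, from -3.65 to -0.71, while those of Rora and Rorb lie on both sides of 0.

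The 24 h rhythm was tested within each genotype by meta2d, which combines the p-values of JTK_CYCLE and Lomb-Scargle, with a threshold of q under 0.6. In controls Nr1d2 passed it narrowly (p = 0.00137, q = 0.588, n = 12 mice, 0.31% of genes called by meta2d). Nr1d1 did not (p = 0.0192, q = 1, n = 12). The Nr1d2 call was lost when any 1 of the 12 control mice was left out, with p-values from 0.000678 to 0.00958. Without the library labelled control ZT18 replicate 2, p was 0.00579 for Nr1d1 (q = 0.865) and 0.00873 for Nr1d2 (q = 0.947, n = 11). Rora (p = 0.302) and Rorb (p = 1) did not pass in controls either (n = 12). In mutants, where 0.0387% of genes passed, none of the 4 receptors did, with p = 0.113 for Nr1d1, 0.517 for Nr1d2 and 1 for both Ror genes (n = 12). Without the library labelled mutant ZT6 replicate 1, p was 0.00354 for Nr1d1 and 0.619 for Nr1d2 (q = 1 for both, n = 11).

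A cosine fitted to log2 values described the same profiles on another scale. In controls the amplitude, in log2 units from mean to peak, was 2.15 ± 0.45 for Nr1d1 with a fitted peak at ZT 7.84 and 1.60 ± 0.19 for Nr1d2 with a peak at ZT 9.75 (SE, n = 12). In mutants it was 1.31 ± 0.43 for Nr1d1, peaking at ZT 7.98, and 0.90 ± 0.32 for Nr1d2, peaking at ZT 8.47. Fitted peak times of the repressors thus moved by 0.15 h and -1.28 h, both well inside the sampling interval. Without the pair of libraries the peaks were at ZT 7.50 in controls and 7.44 in mutants for Nr1d1, and at ZT 9.76 and 9.61 for Nr1d2, so the larger shift rests on that pair. Rora had amplitudes of 0.28 ± 0.08 in controls and 0.11 ± 0.11 in mutants, and Rorb 0.26 ± 0.69 and 0.29 ± 0.41. Without the pair of libraries (n = 11 per genotype) the amplitude of Nr1d1 was 2.60 ± 0.34 in controls and 1.76 ± 0.29 in mutants, and that of Nr1d2 1.60 ± 0.21 and 0.67 ± 0.24.

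By the edgeR cosinor, a quasi-likelihood test of cosine and sine terms on counts, the rhythm had unadjusted p = 0.00069 for Nr1d1 and 6.66e-07 for Nr1d2 in controls, and 0.00481 and 0.00751 in mutants. Adjusted over all genes, those p-values came to 0.193 and 0.00258 in controls and to 0.953 and 1.00 in mutants. Without the pair of libraries the adjusted p-values of Nr1d1 and Nr1d2 were 0.00508 and 0.00576 in controls and 0.142 and 0.998 in mutants. Rora had an unadjusted p of 0.0297 in controls, where 4.43% of all genes had one under 0.05 by this test.

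Whether the rhythm differed between genotypes was tested directly by the interaction of genotype with cosine and sine in edgeR. The unadjusted p was 0.828 for Nr1d1, 0.0886 for Nr1d2, 0.328 for Rora and 0.792 for Rorb, and the adjusted p was 1.00 for each after rounding. No gene was called in this test (0.0%), 660 genes (4.26%) had an unadjusted p under 0.05, and DESeq2 called 1. The difference in log2 amplitude, mutant minus control, was -0.85 for Nr1d1 (95% interval -2.16 to 0.47) and -0.70 for Nr1d2 (-1.48 to 0.08), so a smaller and an equal amplitude both lie within these intervals. For Rora it was -0.18 (-0.47 to 0.11) and for Rorb 0.02 (-1.66 to 1.71). Without the pair of libraries the difference in log2 amplitude was -0.84 for Nr1d1 (-1.78 to 0.10) and -0.93 for Nr1d2 (-1.60 to -0.25), so that the interval of Nr1d2 then lay below 0. Its unadjusted p in the edgeR interaction test was 0.0137 and its adjusted p 0.954, while 2 genes (0.0129%) were called. A difference in relative rhythm was thus called for none of the 4 receptors with or without the pair, whereas the difference in level of the repressors was called in both fits.

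**Figure D4:**
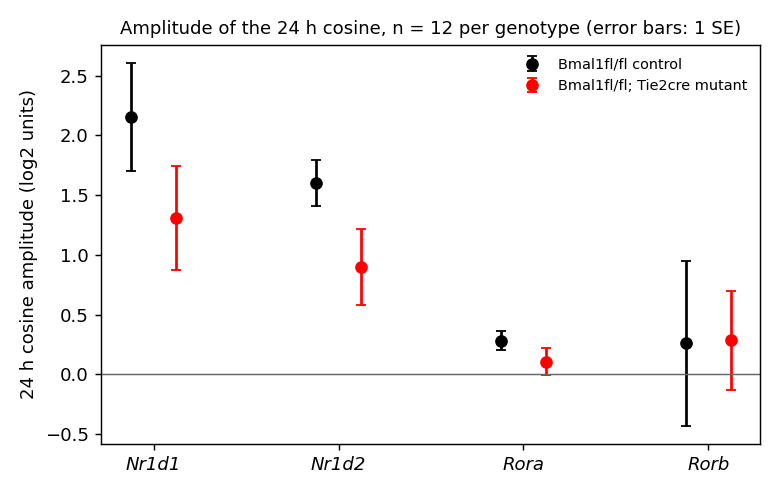
Amplitude of a 24 h cosine fitted to log2 normalized reads of each receptor in controls (black) and mutants (red), with bars of 1 SE and 12 mice per genotype. The fitted amplitudes of Nr1d1 and Nr1d2 were 2.15 and 1.60 in controls and 1.31 and 0.90 in mutants.

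Set on a per-length scale, the order of the receptors differed by genotype. In controls the means were 139 ± 162 reads per kb of exon for Nr1d1, 118 ± 79.5 for Nr1d2, 47.4 ± 7.55 for Rora and 7.54 ± 6.62 for Rorb (SD over 12 mice at 6 times of day). This spread holds the daily range of each gene, and the 2 repressors were not tested against each other. In mutants they were 22.4 ± 20.1 for Nr1d1, 28.2 ± 24.4 for Nr1d2, 42.5 ± 7.58 for Rora and 6.60 ± 3.18 for Rorb, so that Rora had the highest mean there, as it had without the pair of libraries (41.2, against 23.9 for Nr1d1 and 21.8 for Nr1d2). Rorb was lowest in both genotypes. Exon lengths (merged exons, GENCODE vM21) were 3077 bp for Nr1d1 on chromosome 11, 5409 bp for Nr1d2 on chromosome 14, 13071 bp for Rora on chromosome 9 and 11076 bp for Rorb on chromosome 19.

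Repressors were then set against activators in each library, as the log2 ratio of summed Nr1d1 and Nr1d2 to summed Rora and Rorb reads per kb, without a test. In controls the ratio was 1.76 and 1.63 for the mice of ZT2, 3.69 and 3.48 for those of ZT6, 2.66 and 2.48 for ZT10, 1.41 and 2.22 for ZT14, 0.46 and 1.48 for ZT18, and -0.54 and -0.58 for ZT22. In mutants it was -0.52 and 0.50 for the mice of ZT2, 0.77 and 0.75 for those of ZT6, 0.85 and 0.01 for ZT10, 0.02 and 0.44 for ZT14, -1.45 and -1.50 for ZT18, and -1.31 and -1.32 for ZT22. Repressor transcripts outnumbered activator transcripts per length in 10 of 12 control libraries, all but those of ZT22, and in 7 of 12 mutant libraries. Both controls lay above both mutants at each time point, also with the pair of libraries (1.48 at control ZT18 and 0.77 at mutant ZT6) set aside. The range came mostly from the numerator. Summed repressor reads per kb ran from 30.8 to 805 in controls and from 15.6 to 105 in mutants, while summed activator reads per kb ran from 44.8 to 75.2 and from 41.6 to 61.6.

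**Figure D5:**
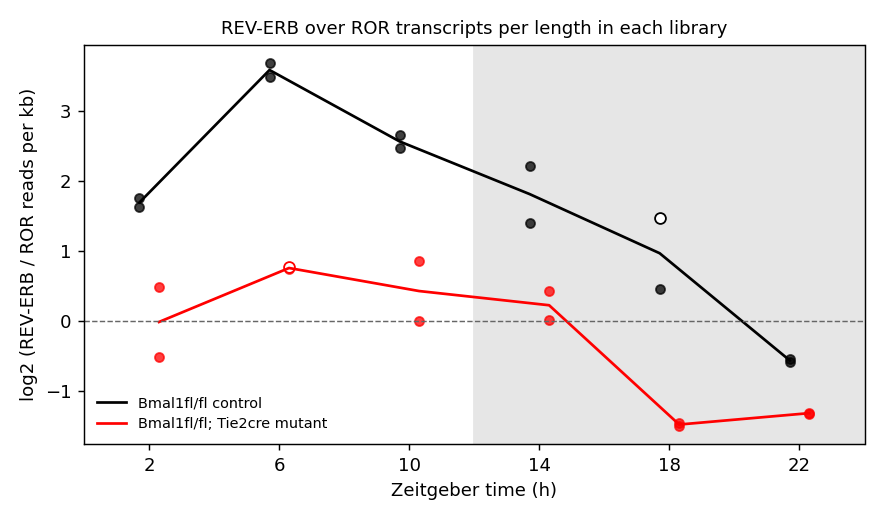
The log2 ratio of summed REV-ERB (Nr1d1, Nr1d2) to summed ROR (Rora, Rorb) reads per kb of exon in each library against zeitgeber time, with lines through the means of 2 mice, controls in black, mutants in red and equality dashed. Open circles mark the libraries labelled control ZT18 replicate 2 and mutant ZT6 replicate 1. Control ratios ran from -0.58 at ZT22 to 3.69 at ZT6 and mutant ratios from -1.50 at ZT18 to 0.85 at ZT10.

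Nr1d1 overlaps Thra, the thyroid hormone receptor α gene, at its 3′ end. The exons of the 2 genes share 263 bp on opposite strands of chromosome 11. The libraries were strand-specific, but the strand setting of the counting was not given in the sources used here, so some reads may have been assigned to either gene. Thra had 666 to 1437 reads in controls and 742 to 1856 in mutants, and its log2 fold change was 0.49 (SE 0.12, adjusted p = 0.0898, edgeR's quasi-likelihood test, and 0.0159 with DESeq2), the opposite direction to Nr1d1. Without the pair of libraries, in which Thra had 1356 and 742 reads, it was called (0.61, adjusted p = 0.00242 by edgeR). By time point in the 24 libraries the Thra log2 fold change was -0.09 at ZT2, 0.24 at ZT6 and 1.03 at ZT10. It was 0.81 at ZT14, 0.75 at ZT18 and 0.21 at ZT22. The correlation of log2 Nr1d1 with log2 Thra was r = -0.09 over the 12 control and 0.14 over the 12 mutant libraries. Between Nr1d1 and Nr1d2 it was 0.77 in controls and 0.19 in mutants. These values were -0.11 and -0.18 with Thra, and 0.80 and 0.57 between the repressors, without the pair of libraries.

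The genes around these receptors were described by lists of their activators, targets and cofactors. Of 6 activators of Nr1d transcription, 3 fell in mutants, the PAR bZIP factors Dbp (-1.26, adjusted p = 0.0115), Tef (-0.87, adjusted p = 0.00458) and Hlf (-0.76, adjusted p = 0.00447), all log2 fold changes by edgeR's quasi-likelihood test. Calls were lost for Dbp (-0.88, adjusted p = 0.326) and Tef (-0.81, adjusted p = 0.114) without ZT6 and ZT18, for Tef (adjusted p = 0.0814) and Hlf (adjusted p = 0.712) in those time points alone, for Tef (adjusted p = 0.191) and Hlf (adjusted p = 0.146) with the i5 index, 1 of 2 sequence labels of the libraries, as a covariate, and for all 3 without time point in the model. All 3 calls held without the pair of libraries. The other 3, Clock (0.25, adjusted p = 0.220), Npas2 (2.27, adjusted p = 0.0573) and Arntl (0.96, adjusted p = 0.639), were not called. Over the 40 alternative fits, from 0 to 2 of the 6 activators were called higher in mutants. Npas2 passed by DESeq2 (adjusted p = 0.0199), with the replicate block (0.0408), without the filter on low counts, without ZT6 and ZT18 (2.33, adjusted p = 0.00413), without the pair of libraries (3.01, adjusted p = 0.000131) and in 5 of the 24 fits that left out 1 mouse. Of 8 repressors of that activation, Per3 fell (-1.89, adjusted p = 4.18e-05) and Cry1 rose (0.89, adjusted p = 0.000759), where Cry1 just missed the threshold with the i5 index as a covariate (adjusted p = 0.0535). Both calls were lost in ZT6 and ZT18 alone (Per3 -1.40, adjusted p = 0.318, and Cry1 1.09, adjusted p = 0.0529, by edgeR) and without time point in the model (adjusted p = 0.0730 and 0.178). Both were made in ZT6 and ZT18 once the pair of libraries was left out. The values of Npas2, Per3 and Cry1 had singled out that pair, so fits without it decide nothing for these 3 genes. Per1, Per2, Cry2, Ciart, Bhlhe40 and Bhlhe41 were not called in level over the day. For Per2 that level joined opposite differences. At ZT2 controls had 36 and 22 reads and mutants 131 and 107, and at ZT10 657 and 631 against 211 and 121. Per2 (unadjusted p = 0.00105) and Ciart (0.000887) were not called in edgeR's rhythm difference test over the 24 libraries. Cry2 missed the threshold narrowly (0.50, adjusted p = 0.0551 by edgeR) and passed by DESeq2 (adjusted p = 0.00792), without the filter on low counts (0.0251), under the stricter filter (0.0384), without the pair of libraries (0.54, adjusted p = 0.0309) and in 3 of the 24 fits that left out 1 mouse. Against these counts stand 0.155% of all genes called higher and 0.116% called lower.

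Of 5 genes known for ROR and REV-ERB elements (Arntl, Npas2, Clock, Cry1 and Nfil3), Cry1 rose and none fell. Npas2 was also called without the pair of libraries, but its own values helped to single out that pair, so that call decides nothing. The median log2 fold change of the 5 genes was 0.89, against 0.0033 over all 15493 genes. Arntl and Npas2, which REV-ERB represses, had means of 195 and 64.3 reads in controls and 226 and 204 in mutants. The Arntl means joined opposite differences through the day. At ZT10 controls had 1 and 22 reads and mutants 120 and 169, and at ZT14 15 and 13 against 251 and 354. At ZT2 controls had 439 and 466 and mutants 243 and 259. In edgeR's rhythm difference test Arntl had an adjusted p of 0.141, and of 0.0368 without the pair of libraries. These reads include exons outside the deleted part. Nfil3, a repressor of D-box transcription, stood at 0.78 (adjusted p = 0.574). None of the 6 REV-ERB corepressors (median -0.01), 5 ROR coactivators (median 0.04) or 5 tested genes for turnover of REV-ERB protein (median 0.09) was called. The corepressor Hdac3 had a log2 fold change of -0.02 and Ncor1 one of 0.01, with 95% intervals of -0.31 to 0.27 and -0.15 to 0.16.

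The genes most like each receptor over the 24 libraries were taken by Pearson correlation of log2 CPM among 9896 genes with a mean of 50 or more reads. For Nr1d2 these were Per3 (r = 0.91), Hlf (0.87), Tef (0.85), Tspan4 (0.82) and Tfrc, the transferrin receptor (0.80). The lowest were Fam124b (-0.90), Mlec (-0.88) and Npas2 (-0.83). With ZT6 and ZT18 left out the values were 0.93 for Per3, 0.91 for Hlf, 0.84 for Tef and 0.77 for both Tspan4 and Tfrc. Those of Fam124b, Mlec and Npas2 were then -0.92, -0.86 and -0.88.

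For Nr1d1 they were Dbp (0.81), Nr1d2 (0.74), Rbm3 (0.72), Tmed8 (0.72) and Tspan4 (0.69), with Hspa5 (-0.69), Ammecr1 (-0.68) and Mlec (-0.66) lowest. With ZT6 and ZT18 left out these values were, in the same order, 0.68, 0.80, 0.57, 0.69 and 0.72, and -0.72, -0.62 and -0.64. Tspan4 was on the list of both repressors in the 24 libraries, with means of 183.5 reads in controls and 95.4 in mutants. For Rora the closest were Ly75 (0.87), Tmeff1 (0.79), Inpp5f (0.77), Bhlhb9 (0.76) and Rnf19a (0.74). For Rorb they were Fgd4 (0.81), Gm29216 (0.80), Ermn, an oligodendrocyte gene (0.80), Gm44667 (0.80) and Gm28437 (0.79), and these values dropped to between 0.27 and 0.68 once ZT6 and ZT18 were left out. The points of each correlation share genotype, time of day and library series, so they describe likeness only. Leaving out the pair of libraries, r was 0.93 between Nr1d2 and Per3, and 0.82 both between Nr1d1 and Dbp and between Nr1d1 and Nr1d2, while Rbm3 (0.69), Tmed8 (0.70) and Tspan4 (0.72) were no longer among the 5 closest to Nr1d1. Ammecr1 also left the 3 lowest for Nr1d1, Tfrc the 5 closest to Nr1d2, Rnf19a those to Rora, and Gm29216 and Gm28437 those to Rorb.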

How the data were processed

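RNA was measured in 24 libraries of sorted CD31-positive brain cells. Per the labels and the study's methods, the authors made strand-specific total RNA libraries, aligned reads to GRCm38 with STAR 2.5.3a, merged lanes with SAMtools 1.3.1 and normalized and quantified genes with PORT. The deposited values are normalized counts, whole numbers of reads per gene, and since PORT brings libraries to near-equal totals (6136404 to 6648311) their original depth is not in them. How reads in overlapping genes were assigned was not given in the sources used here. A gene was kept when 6 libraries of a genotype had at least 5 reads (15493 of 53465), as in the study's methods.

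Levels were compared with edgeR 4.0.16 (R 4.3.3), TMM factors and the quasi-likelihood test, with time point and genotype as terms. The rhythm difference was the interaction of genotype with cosine and sine of 24 h, and time points were contrasted in a model with 1 mean per group. P-values were adjusted by Benjamini-Hochberg over all genes, with a threshold of 0.05. Rhythm within a genotype was tested with an own implementation of meta2d (Python 3.11.15, period 24 h, Fisher combination, q under 0.6 as in the study's methods). DESeq2 1.42.0 was an alternative, and so was leaving out a pair of libraries that went against their labels. Amplitudes came from least squares on log2(TMM-scaled reads + 1) and intervals from their standard errors. Each library is 1 mouse. Among the edgeR fits, only that with 1 mean per group takes its spread from mice of the same group. In the level and cosine fits the spread also holds departures of group means from the fitted terms. Promoters came from RefSeq, and gene structures from GENCODE vM21. The edgeR tests were checked on simulated data, in which 99% of genes changed 4-fold in level and 57.5% of genes losing a rhythm of relative amplitude 0.9 were recovered among 15493 genes, and 74% of genes changed 8-fold at ZT6 alone.

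The 4 receptors and the gene lists were chosen with earlier results of these data known. Named genes were the receptors, the list genes, Arntl, and the 5 genes most correlated with each receptor (and the 3 least, for Nr1d1 and Nr1d2). Some genes of the list of genes with ROR and REV-ERB elements are not reported here.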

Additional observations from a re-analysis of the deposited data

How the results depend on the processing

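The lower level of Nr1d1 and Nr1d2 kept its direction and its call in all alternatives but the model without time point, where the log2 fold changes were -2.62 and -2.07 and the calls were lost. Leaving out each mouse gave -2.40 to -2.02 for Nr1d1 and -2.08 to -1.80 for Nr1d2. The level of Rorb turned positive with the replicate block (0.026), with astrocyte markers as a covariate (0.067) and in ZT6 and ZT18 alone (0.18, or 0.126 without control ZT18 replicate 2 and mutant ZT6 replicate 1), and ran from -0.15 to 0.21 when each mouse was left out. Leaving out each mouse also turned the sign of single time points that were not called: for Rora -0.20 to 0.037 at ZT2, -0.085 to 0.22 at ZT6 and -0.28 to 0.20 at ZT22, and for Rorb -0.075 to 0.15 at ZT2, -1.36 to 2.10 at ZT6, -1.84 to 0.40 at ZT14 and -0.34 to 0.15 at ZT22. The ZT2 value of Rorb was -0.013 without TMM, and the ZT6 value of Rora -0.084 without that pair of libraries. The causes were not tested.

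For rhythm in controls (n = 12), Nr1d1 passed q under 0.6 by the edgeR cosinor (p = 0.00069), with the replicate block (p = 0.000819), without ZT6 and ZT18 (p = 0.000245) with those libraries as a covariate (p = 1.28e-05) and without control ZT18 replicate 2 (p = 1.97e-06). The meta2d call of Nr1d2 (n = 12) was lost after TMM scaling (p = 0.00492), with tied time points kept tied (p = 0.00473) and without any 1 mouse (p from 0.000678 to 0.00958). In mutants (n = 12), Nr1d1 passed by the cosinor without ZT6 and ZT18 (p = 0.00809) with those libraries as a covariate (p = 0.000945) and without mutant ZT6 replicate 1 (p = 0.000136), and Nr1d2 with that covariate (p = 0.00394).

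Counts over all genes moved more. The level test called 42 genes, 141 without the filter on low counts, 7 with the i5 index as a covariate, 99 by DESeq2, 3 in ZT6 and ZT18 alone, 92 without the pair of libraries, 71 in ZT6 and ZT18 without that pair, 0 by edgeR without time point in the model (738 with an unadjusted p under 0.05), 22 with a cosine in each genotype and 25 to 68 when each mouse was left out. The rhythm difference test called 0 genes, 52 without the filter, 5 without ZT6 and ZT18, 2 by the 5-df interaction, 2 without the pair of libraries, 6 by the 5-df interaction without it, 1 each by DESeq2, with the i5 index and with astrocyte, neuron or microglia markers, and 0 to 1 when each mouse was left out. Rhythm in controls was called for 48 genes, against 133 by the cosinor, 103 with the replicate block, 316 without ZT6 and ZT18, 508 with those libraries as a covariate, 206 by the cosinor without control ZT18 replicate 2, 0 with ties kept (290 with an unadjusted meta2d p under 0.05) and 0 to 36 without each mouse. In mutants the counts were 6 by meta2d, 30 by the cosinor, 23 with the block, 301 without ZT6 and ZT18, 366 with those libraries as a covariate, 0 with ties kept (248 with an unadjusted p under 0.05) and 0 to 4 without each mouse, with 58 by the cosinor without mutant ZT6 replicate 1, 24 after TMM scaling and 43 under the stricter filter.

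Same-numbered mice of the 2 genotypes did not deviate together (r from -0.03 to 0.07 over 6 time points, and up to 0.25, with 6 over 0.1, among all 66 pairs of groups), so the numbers were not taken to pair mice. The replicate block changed the call of Nr1d1 at ZT6 and no other call of the 4 receptors between genotypes. Among the list genes called lower, the 3 PAR bZIP factors were reduced to 1 (Dbp) when the i5 index was a covariate, to 1 without ZT6 and ZT18 (Hlf), to 1 in those time points alone (Dbp) and to 0 without time point in the model. Per3 was lost in ZT6 and ZT18 alone and without time point. The microglia, tie, library-covariate and library-pair alternatives were chosen after seeing the data. In the level fit, edgeR's coefficient of variation, which is drawn toward that of other genes, was 51.7% for Nr1d1 and 49.2% for Rorb. It also holds genotype differences that change with time of day, so it is not the spread between mice alone. The 12.6-fold Nr1d1 difference at ZT6, from the model with 1 mean per group, was not called.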
